A study of Mus musculus with 6 samples.

Results

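Transcripts of 6 genes, of 18193 measured, were followed in MIN6, a mouse insulinoma line with many features of beta cells. The genes are Mnx1, the homeobox factor also called Hlxb9, the glycogen synthase kinase 3 genes Gsk3a and Gsk3b, and Nono, Sfpq and Pspc1, whose products form one family of nuclear RNA-binding proteins. They were taken by name: every probe set whose platform annotation gives one of these symbols alone was kept, which gave 20 probe sets for the 6 genes, out of 45037 probe sets tested on the array. Mnx1 and Gsk3a have 1 probe set each, Pspc1 has 2, Nono has 4, and Gsk3b and Sfpq have 6 each. Of the 20, 16 had a mean signal above the median of all probe sets.

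The study compared MIN6 cells given a scrambled control siRNA with MIN6 cells given an siRNA against mouse Hlxb9, 3 arrays in each group. Both groups went through the same nucleofection and lipid transfection, and RNA was taken after 72 hours. Only preparations in which a western blot showed Hlxb9 protein lower by over 75% went onto arrays, so the Hlxb9 siRNA arrays were picked on that result. The design text calls the transfections independent, and the labels describe the cells as sorted, naming no gate. MIN6 is a single tumour line, and a partial knockdown for 3 days is the model here. Where the arrays of a group are not separate cultures, the p-values measure only the spread between these samples. In RNA taken from many cells at once, fewer cells of a type and less RNA per cell cannot be told apart.

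Mnx1 is needed to form the dorsal pancreas and acts again in maturing beta cells and in motor neurons. Gsk3a and Gsk3b are related serine and threonine kinases, active in resting cells and held back when Akt phosphorylates a serine near their N-terminus, and in beta cells they mark factors such as Pdx1 for breakdown. Nono, Sfpq and Pspc1 pair with each other, bind RNA and DNA, and build paraspeckles on the long noncoding RNA Neat1. Work on insulinoma cells has described Gsk3b as a kinase that phosphorylates Hlxb9 protein, and Nono as a binding partner of the phosphorylated form. The array measures transcripts and says nothing of these phosphorylations.

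None of the 20 probe sets passed limma's threshold of an adjusted p of 0.05, where 0% of all probe sets passed in either direction. On its brightest probe set, each gene but Sfpq was lower after Hlxb9 siRNA, 5 of 6, where 49.4% of all genes were lower. Of the 20 probe sets 15 were lower, or 75.0%. Among all probe sets 49.0% were below 0, and among the brighter ones, above the median signal, 39.5%. The median difference of the 20 was -0.10 log2, against 0.0041 over all probe sets and 0.048 over the brighter ones. Without control replicate 3 these medians were -0.14, 0.014 and 0.035. At an unadjusted p of 0.05, 3 of 20 were lower and 0 higher, where 3.76% of all probe sets were lower and 3.86% higher (3.43% and 5.41% of the brighter ones). Without Hlxb9 siRNA replicate 2 that count was 0, against 2.02% of all probe sets in the same fit. Without control replicate 3 it was 5, against 3.98%, and with the replicate number as a block it was 2, against 4.22%. In 7 of the 20, spread over Gsk3a, Gsk3b, Nono and Sfpq, all 3 Hlxb9 siRNA values lay below all 3 control values, where 7.29% of all probe sets and 6.99% of the brighter ones did so; without control replicate 3 it was 9, against 11.7%. In 0 of the 20 did they lie above, where 8.27% of all probe sets and 12.3% of the brighter ones did so. Within arrays of equal number, 9 of the 20 were lower in all 3 pairs and 3 were higher in all 3. Of all probe sets 16% were lower and 17.9% higher in all 3 pairs, and of the brighter ones 13% and 24.7%. Counted with the brightest probe set of each gene, 5 of the 6 were lower and 1 higher in all 3 pairs, where 16.5% and 19% of all genes were. Probe sets annotated to the same gene are not independent of each other, so these counts are a description.

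The upstream sequences of the 3 genes whose brightest probe set had groups that did not overlap, Gsk3a, Gsk3b and Nono, are printed here. That of Mnx1, the target of the siRNA, is given beside them, though its groups overlapped. None of these transcripts passed the adjusted threshold, and a shared regulation of them was not tested. Each run is the 250 bases before the RefSeq start site in assembly GRCm38.p6, written along the gene's strand. Capitals mark TAAT, the core that many homeodomain proteins bind, or its other-strand form ATTA. The stretches lie at chr5:29478471-29478720, minus strand (Mnx1), chr7:25237852-25238101, minus strand (Gsk3a), chr16:38088751-38089000, plus strand (Gsk3b) and chrX:101429401-101429650, plus strand (Nono).
Mnx1: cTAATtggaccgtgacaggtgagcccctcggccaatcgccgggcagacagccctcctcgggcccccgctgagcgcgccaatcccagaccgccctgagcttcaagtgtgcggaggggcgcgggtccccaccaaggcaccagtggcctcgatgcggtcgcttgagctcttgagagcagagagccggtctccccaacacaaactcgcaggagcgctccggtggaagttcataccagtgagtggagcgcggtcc
Gsk3a: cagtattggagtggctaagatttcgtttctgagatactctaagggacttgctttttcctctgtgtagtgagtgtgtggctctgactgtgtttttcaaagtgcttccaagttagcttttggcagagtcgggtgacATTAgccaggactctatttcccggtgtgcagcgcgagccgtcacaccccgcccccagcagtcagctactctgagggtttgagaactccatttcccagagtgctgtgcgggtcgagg
Gsk3b: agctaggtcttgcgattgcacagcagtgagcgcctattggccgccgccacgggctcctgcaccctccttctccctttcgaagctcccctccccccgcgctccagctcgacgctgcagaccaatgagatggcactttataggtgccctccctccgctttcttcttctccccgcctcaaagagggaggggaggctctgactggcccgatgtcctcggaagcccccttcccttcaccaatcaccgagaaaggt
Nono: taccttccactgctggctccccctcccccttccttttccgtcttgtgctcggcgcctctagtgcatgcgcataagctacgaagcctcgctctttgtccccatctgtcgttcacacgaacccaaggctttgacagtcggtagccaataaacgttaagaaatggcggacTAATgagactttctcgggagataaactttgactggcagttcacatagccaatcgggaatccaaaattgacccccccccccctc
Mnx1, Gsk3a and Nono each hold 1 match and Gsk3b holds 0. Over the 6 genes 4 hold the core on either strand, and 54.9% of the 32851 RefSeq stretches of the same length do too. The longer TAATTA, which reads the same on both strands, is in 0 of the 6 and in 4.84% of all stretches. A match is a string of letters and not a measured binding site.

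Before the results, 1 array needs naming. Control replicate 3 stood apart from the other 5: its lowest and highest correlation with another array were 0.988 and 0.991, where the other arrays reached 0.997 with their nearest. Between the Gapdh controls of the array, 3' minus 5', the log2 signal was 2.13 here and 0.65 to 0.78 on the rest. Control replicate 3 was the lowest or the highest of the 6 arrays in 57.3% of all probe sets, against 22.5% to 36.8% for each other array. Among the 20 probe sets it was lowest in 5 and highest in 7. Differences, list medians and gaps that moved by over 1.5 times without it are given without it too. The part of RNA quality in these results was not tested.

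Mnx1, the target of the siRNA, came first. Its probe set (1460299_at) read 7.82, 7.50 and 7.77 log2 on control replicates 1, 2 and 3 and 7.53, 7.41 and 7.28 after Hlxb9 siRNA. The groups overlapped, since Hlxb9 siRNA replicate 1 lay above control replicate 2. The difference was -0.29 ± 0.13 log2 (SE), or -18.0% in linear signal, with a limma adjusted p = 0.659. An exact permutation test, two-sided, gave 0.2, where 0.1 is the smallest that 3 against 3 arrays allow. Its 95% interval ran from -0.58 to 0.0074 log2. Within arrays of equal number the differences were -0.28, -0.09 and -0.49 log2, all 3 in one direction. Without control replicate 3 the difference was -0.25 log2.

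Gsk3a, the alpha form of the kinase, read 9.21, 9.04 and 9.44 log2 in controls and 8.91, 8.999 and 8.98 after Hlxb9 siRNA on its probe set (1435638_at). All 3 Hlxb9 siRNA values lay below all controls, by a gap of 0.040 log2 between control replicate 2 and Hlxb9 siRNA replicate 2. The difference was -0.27 ± 0.13 log2 (SE), or -17.1% in linear signal, and did not pass (limma adjusted p = 0.666). Its 95% interval ran from -0.56 to 0.022 log2. Control replicate 3 was the highest array, 0.32 log2 above the mean of the other controls, and without it the difference was -0.16 log2, smaller by over 1.5 times.

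**Figure D1:**
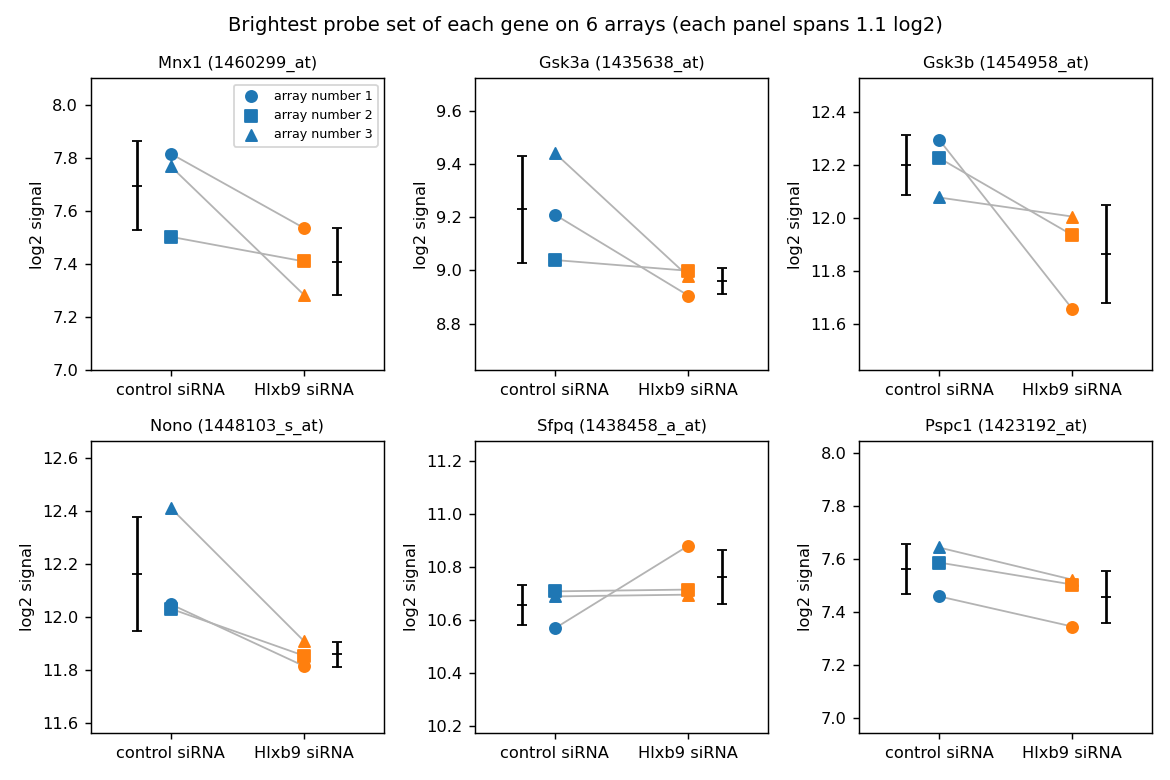
Log2 signal of the brightest probe set of each gene on the 6 arrays (blue, control siRNA; orange, Hlxb9 siRNA; the marker shape gives the array number, grey lines join arrays of equal number, and black bars are mean ± SD, n = 3). Each panel spans the same height; for Gsk3a, Gsk3b and Nono every orange point lies below every blue one, while for Mnx1, Sfpq and Pspc1 the groups overlap.

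Gsk3b, the beta form, was read most brightly by 1454958_at, with 12.30, 12.23 and 12.08 log2 in controls and 11.66, 11.94 and 12.01 after Hlxb9 siRNA. The groups did not overlap, and Hlxb9 siRNA replicate 1 was the lowest. The difference was -0.33 ± 0.13 log2 (SE), or -20.7% in linear signal, and did not pass over all probe sets (limma adjusted p = 0.653). Within arrays of equal number it was -0.64, -0.29 and -0.07 log2. Unlike Gsk3a, the same value grew to -0.40 log2 when control replicate 3 was left out.

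The other 5 Gsk3b probe sets split when all arrays were used. Probe set 1451020_at read 7.71, 7.45 and 7.31 log2 in controls and 7.21, 7.19 and 7.28 after Hlxb9 siRNA, again without overlap, a difference of -0.26 ± 0.13 log2 (SE), and of -0.15 without control replicate 1. Probe set 1434439_at differed by -0.21 ± 0.16 log2, with overlap, by -0.34 without control replicate 3 and by -0.11 without Hlxb9 siRNA replicate 1. Probe sets 1437001_at and 1439931_at both differed by -0.06 log2, with standard errors of 0.33 and 0.32, and 1439949_at by 0.14 ± 0.18 log2. On 1437001_at the controls read 10.28, 10.01 and 8.97 and the Hlxb9 siRNA arrays 9.40, 9.63 and 10.05. Control replicate 3 was thus the lowest of all 6 arrays there, at -1.18 log2 from the mean of the other controls, and on 1439931_at it was at -1.19 log2. Without it these probe sets differed by -0.45 and -0.46 log2, and 1439949_at by -0.044.

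Without control replicate 3 all 6 Gsk3b probe sets were lower after Hlxb9 siRNA, from -0.46 to -0.044 log2. Of these, 4 had an unadjusted limma p under 0.05, where 3.98% of all probe sets were lower and 5.54% higher at that level, and 0 passed over all probe sets (smallest limma adjusted p = 0.486). In the pairs numbered 1 and 2, all 6 probe sets were lower on the Hlxb9 siRNA array, and in the pair numbered 3 only 2 of 6 were. The plot of differences within arrays of equal number shows this split, in which 1437001_at runs from -0.88 in pair 1 to 1.08 in pair 3.

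**Figure D2:**
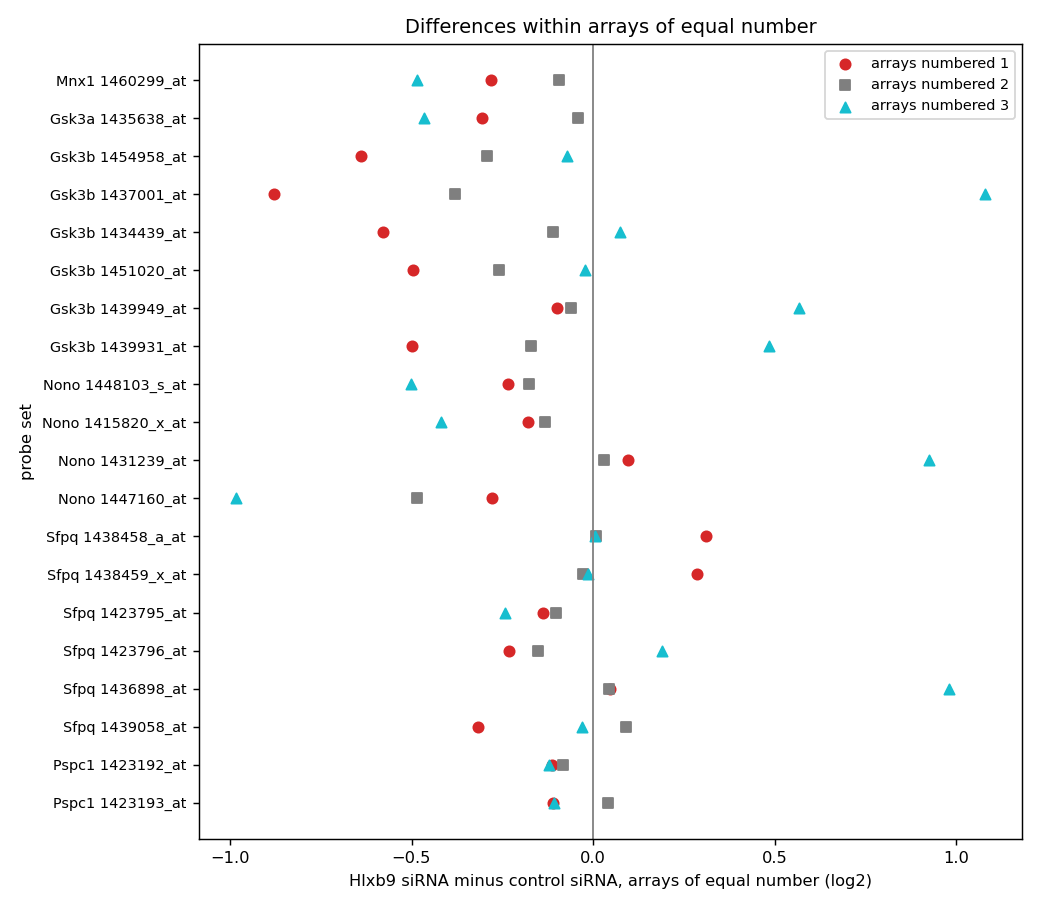
Difference in log2 signal, Hlxb9 siRNA minus control siRNA, between arrays of equal number for each of the 20 probe sets (red circles, arrays numbered 1; grey squares, 2; cyan triangles, 3). The cyan triangles, which rest on control replicate 3, reach 1.08 for Gsk3b 1437001_at and -0.98 for Nono 1447160_at, while the squares lie between -0.48 and 0.091.

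The brightest probe sets of Gsk3b and Gsk3a were set against each other within each array. The log2 gap between them was 3.09, 3.19 and 2.64 in controls and 2.75, 2.94 and 3.03 after Hlxb9 siRNA. It was smaller by 0.06 log2 after Hlxb9 siRNA (two-sided exact permutation p = 0.7, Benjamini-Hochberg adjusted p = 0.7 over 4 such comparisons), a test that cannot pass 0.05 with these arrays. Without control replicate 3 the gap differed by -0.23 log2. The sign turned, to 0.14, when all probe sets of a gene were averaged.

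Nono, which binds RNA and DNA in transcription and splicing, had its 2 brightest probe sets in close accord. Probe set 1448103_s_at read 12.05, 12.03 and 12.41 log2 in controls and 11.82, 11.86 and 11.91 after Hlxb9 siRNA. Control replicate 3 was the highest, and the groups were separated by 0.12 log2, with Hlxb9 siRNA the lower. The difference was -0.30 ± 0.13 log2 (SE), or -19.0% in linear signal (limma adjusted p = 0.653), and -0.18 log2 without control replicate 3. Probe set 1415820_x_at, whose suffix marks probes that can bind related sequences, differed by -0.24 ± 0.13 log2 and by -0.12 without that array, also without overlap.

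The dimmer Nono probe sets went in opposite directions. Probe set 1447160_at read 6.02, 6.11 and 6.74 log2 in controls and 5.74, 5.62 and 5.76 after Hlxb9 siRNA, with no overlap and a gap of 0.26 log2. Its difference of -0.58 ± 0.19 log2 (SE), or -33.2% in linear signal, stood highest of the 20 probe sets in limma's ranking (adjusted p = 0.645), and was -0.36 log2 without control replicate 3. Probe set 1431239_at read 7.10, 6.73 and 5.88 log2 in controls and 7.20, 6.76 and 6.80 after Hlxb9 siRNA. Its difference was 0.35 ± 0.29 log2 and became 0.0038 log2 without control replicate 3, the lowest array on that probe set by far. In the plot of group differences, the 4 Nono probe sets lie closer together without that array.

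**Figure D3:**
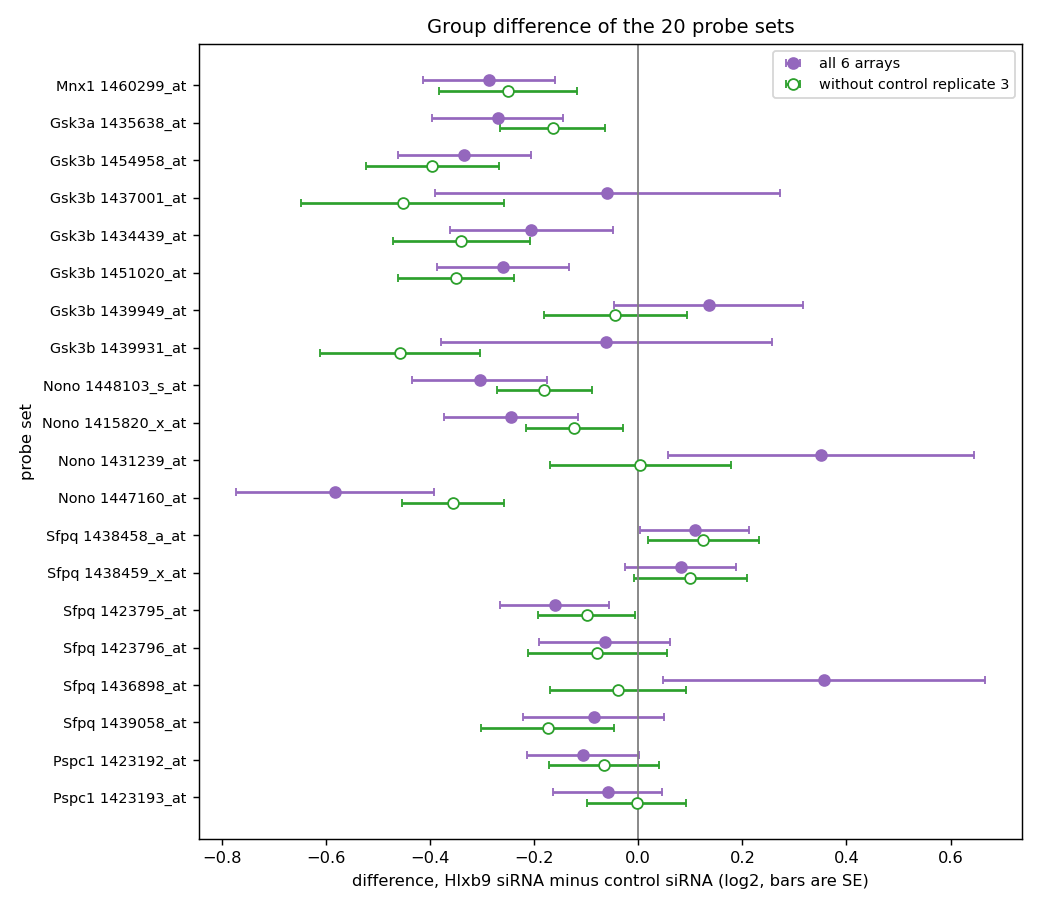
Group difference of each of the 20 probe sets in log2 signal, Hlxb9 siRNA minus control siRNA, with limma's standard error (filled purple, all 6 arrays; open green, without control replicate 3). With all arrays 5 probe sets lie above 0, and Nono 1431239_at and Sfpq 1436898_at, the 2 highest at 0.35 and 0.36, move to 0.0038 and -0.039 without that array; all 6 Gsk3b probe sets lie below 0 without it.

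Sfpq, a splicing factor and the usual partner of Nono in paraspeckles, showed no common direction. Its brightest probe set, 1438458_a_at, read 10.57, 10.71 and 10.69 log2 in controls and 10.88, 10.71 and 10.70 after Hlxb9 siRNA. Only Hlxb9 siRNA replicate 1 stood above the rest, and the difference was 0.11 ± 0.11 log2 (SE; limma adjusted p = 0.801, 95% interval -0.14 to 0.35). Probe set 1438459_x_at had nearly the same values, with a difference of 0.08 log2.

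Probe set 1423795_at read 10.35, 10.27 and 10.49 log2 in controls and 10.21, 10.17 and 10.25 after Hlxb9 siRNA. The groups did not overlap, though the gap was 0.015 log2, and the difference was -0.16 ± 0.10 log2 (SE), or -0.098 without control replicate 3. Probe sets 1423796_at and 1439058_at differed by -0.06 and -0.09 log2, the second by -0.17 without that array. Probe set 1436898_at read 9.92, 9.73 and 8.64 log2 in controls and 9.96, 9.78 and 9.62 after Hlxb9 siRNA, so its difference of 0.36 ± 0.31 log2 came with control replicate 3 far below the other 5 arrays. It was -0.04 log2 without that array. Of the 20 probe sets, 4 had control replicate 3 more than 1 log2 below the mean of the other controls, 2 of Gsk3b and 1 each of Nono and Sfpq, and 2.12% of all probe sets did so.

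Pspc1, paraspeckle component 1, read 7.46, 7.59 and 7.64 log2 in controls and 7.34, 7.50 and 7.52 after Hlxb9 siRNA on its brighter probe set, 1423192_at. The groups overlapped, but all 3 pairs of equal number were lower, by -0.11, -0.08 and -0.12 log2. The difference was -0.11 ± 0.11 log2 (SE; limma adjusted p = 0.807, 95% interval -0.36 to 0.14), and -0.066 log2 without control replicate 3. Its second probe set, 1423193_at, was brighter than only 17.8% of probe sets and differed by -0.06 log2, or by -0.0033 without that array.

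Within arrays, the signal of Nono stood less far above that of Sfpq after Hlxb9 siRNA. The log2 gap between their brightest probe sets was 1.48, 1.32 and 1.72 in controls and 0.94, 1.14 and 1.21 after Hlxb9 siRNA, a difference of -0.41 log2 with no overlap. The two-sided exact permutation p was 0.1, the smallest possible with 3 against 3 arrays, and 0.2 after Benjamini-Hochberg adjustment over the 4 comparisons. Sfpq minus Pspc1 differed by 0.21 log2 (exact permutation p = 0.1, adjusted 0.2) and Nono minus Pspc1 by -0.20 log2 (exact permutation p = 0.2, adjusted 0.27). Nono minus Pspc1 was at -0.11 without control replicate 3, and Sfpq minus Pspc1 at 0.10 without Hlxb9 siRNA replicate 1. When all probe sets of a gene were averaged, Nono minus Sfpq differed by -0.23 and Nono minus Pspc1 by -0.11 (exact permutation p = 0.1 and 0.3). Sfpq minus Pspc1 then differed by 0.12 log2 (exact permutation p = 0.6). These within-array gaps compare differences, not levels, of unlike probe sets. No such test can pass 0.05 at this number of arrays. With the brightest plain _at probe set of each gene, Nono (1431239_at) stood at 0.35 and Sfpq (1423795_at) at -0.16 log2, the opposite order. Without control replicate 3 these were 0.0038 and -0.098 log2. The other plain _at probe set of Nono, 1447160_at, stood at -0.58 log2 with all arrays.

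Across the 6 arrays, whatever their group, Gsk3a varied with 3 of the 4 Nono probe sets. Between Gsk3a and Nono 1448103_s_at, Pearson's r was 0.96 and Spearman's rho 0.94 over 6 arrays, and r was 0.84 over the 5 without control replicate 3. The r was 0.95 with 1415820_x_at and 0.91 with 1447160_at, and fell to 0.79 and 0.63 without that array. With 1431239_at it was -0.77, and 0.075 without that array. Gsk3b 1454958_at and Nono 1448103_s_at had an r of 0.50 over 6 arrays and of 0.96 without that array. Gsk3b 1454958_at had an r of -0.90 with Sfpq 1438458_a_at and of -0.86 with Sfpq 1438459_x_at, on both sets of arrays. With Sfpq 1423795_at, 1423796_at and 1439058_at its r was 0.47, 0.54 and 0.52 over 6 arrays, and with 1436898_at -0.16. The Sfpq probe sets thus gave no common direction. Mnx1 had an r of 0.77 with Gsk3a, 0.66 with Nono 1448103_s_at and 0.41 with Gsk3b 1454958_at. These arrays share group and normalization, and the values are a description with no test. With control replicate 3 alone left out, the Mnx1 values were 0.75, 0.54 and 0.43. Without the 2 arrays farthest from the Mnx1 median, control replicates 1 and 3, they were -0.19, 0.0060 and -0.24. That last set rests on 4 arrays and leaves out the 2 highest Mnx1 values, so it cannot show whether the 3 correlations hold.

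The patterns most like Mnx1 over the 6 arrays belonged to other genes. Of 19850 other probe sets with 1 symbol and a signal above the median, 114 had an r with Mnx1 above 0.9 and 141 below -0.9. The 5 highest were Rps29, a ribosomal protein gene (r = 0.99), Ttr, the thyroid hormone carrier transthyretin (0.99), Ears2, a mitochondrial tRNA synthetase gene (0.99), Ackr4, a scavenger receptor for chemokines (0.99), and Eif2b2, a subunit of a translation initiation factor (0.99). The 3 lowest were Zdhhc20 (-0.99), Zyg11b (-0.98) and Timm10 (-0.98). Gsk3a ranked 554 and the best Sfpq probe set, 1423795_at, 647 in this order. With 6 points and so many probe sets, high values of r are common.

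Genes that work with these 6 were described by list, 1 probe set per gene, the one with the highest mean. Over all 18193 genes the median difference was 0.0023 log2 (0.027 without control replicate 3), and at an unadjusted p of 0.05, 3.74% of genes were lower and 4.21% higher. In the paraspeckle list, 28 of 30 genes were measured, 18 lower and 10 higher with a median of -0.04 log2 (-0.07 without control replicate 3), and 0 passed the adjusted threshold (limma, smallest adjusted p = 0.645). At an unadjusted p of 0.05, 6 of 28 were lower and 0 higher, and in 8 every Hlxb9 siRNA value was under every control value, where 7.75% of genes did so. In 3 genes every value was above, where 9.55% of genes did so. The count of 6 was not steady. It was 3 without control replicate 3 and 2 without control replicate 1. Without Hlxb9 siRNA replicate 1, 2 or 3 it was 1, 1 and 3, and with the replicate block it was 2. Of all 45037 probe sets, 1791, 2378, 824, 908, 1571 and 1902 were lower in these 6 fits, in the same order. The main fit gave 1692.

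Srsf10, a splicing regulator, had a control mean of 10.38 ± 0.06 log2 and an Hlxb9 siRNA mean of 10.00 ± 0.19 (SD, n = 3). Matr3, the nuclear matrix protein matrin 3, read 12.06 ± 0.14 and 11.72 ± 0.15. Hnrnpk, an RNA-binding protein of paraspeckles, read 12.89 ± 0.05 and 12.64 ± 0.08, and its other 3 probe sets were also lower, from -0.22 to -0.14 log2. Hnrnpul1 read 9.55 ± 0.15 and 9.23 ± 0.13, with its lowest control at 9.389 and its highest Hlxb9 siRNA array at 9.382. In all 4 genes the groups did not overlap on the probe set read, but other probe sets of Srsf10 ranged from -0.18 to 0.03 and of Matr3 from -0.28 to 0.03 log2. Neat1, the RNA scaffold of paraspeckles, is given for its role and was named after its values were seen. It read 11.74, 11.54 and 11.60 log2 in controls and 12.08, 11.71 and 11.56 after Hlxb9 siRNA, with overlap and a difference of 0.16 ± 0.15 log2 (SE), and its other probe set differed by 0.36 log2.

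**Figure D4:**
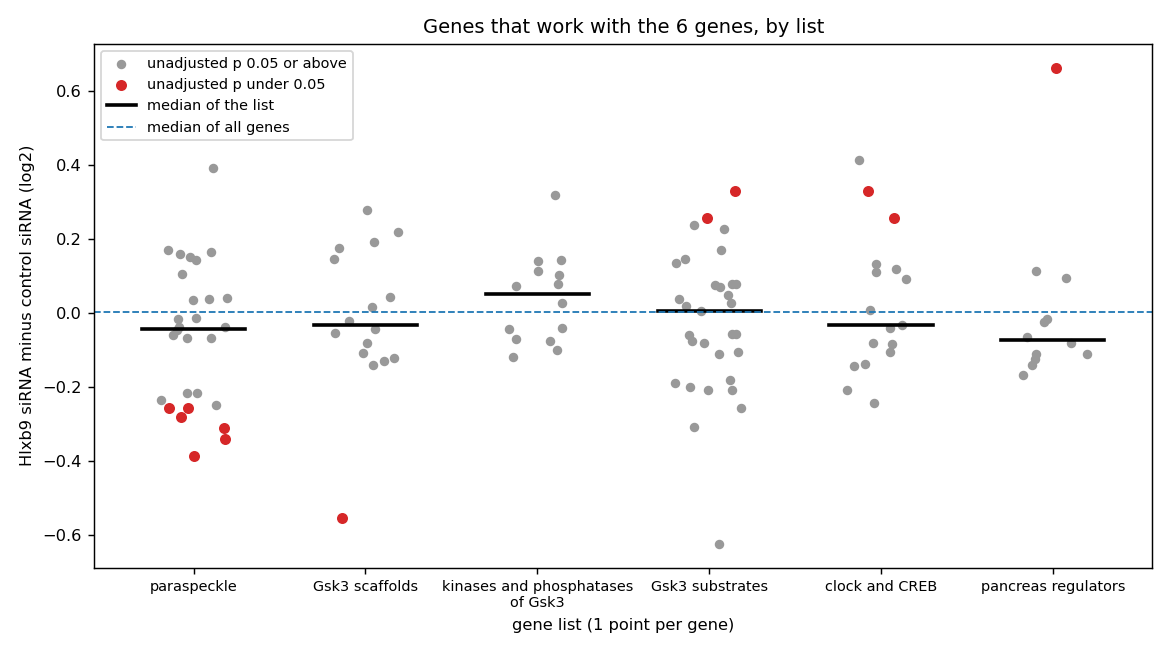
Difference in log2 signal, Hlxb9 siRNA minus control siRNA, for each measured gene of the 6 lists (1 point per gene; red, unadjusted limma p under 0.05; black bar, list median; dashed line, median of all genes at 0.0023). The red points of the paraspeckle list, 6 of 28, all lie below 0, and the list medians lie between -0.07 and 0.05 log2.

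Scaffolds and binding partners of Gsk3 gave 9 lower and 7 higher of 16 measured, with a median of -0.03 log2, or -0.015 without control replicate 3. Dvl3, a dishevelled protein that relays Wnt signals to the Gsk3 complex, had a control mean of 6.08 ± 0.16 log2 and an Hlxb9 siRNA mean of 5.53 ± 0.27 (SD, n = 3), without overlap (limma adjusted p = 0.645). Csnk1d, a casein kinase, differed by 0.22 ± 0.10 log2 (SE), the Wnt co-receptor Lrp6 by 0.28 ± 0.14 and Axin1, the scaffold that holds Gsk3 against beta-catenin, by 0.18 ± 0.10. Lrp6 was at 0.14 without control replicate 3. Other probe sets of Csnk1d ranged from -0.02 to 0.30, and those of Lrp6 and Axin1 differed by 0.06 and 0.08.

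Kinases and phosphatases that act on Gsk3, at its regulatory serine or its activating tyrosine, gave 8 higher and 6 lower of 14 measured. Their median was 0.05 log2, 0.0023 without control replicate 3 and -0.0017 with each array centred on its median, with 0 at an unadjusted p of 0.05 in either direction. The phosphatase subunit Ppp1ca differed by 0.14 log2 (0.087 without control replicate 3) and the integrin-linked kinase Ilk by 0.14. The phosphatase regulator Ppp2r5c differed by 0.11, with other probe sets from -0.25 to 0.32. Prkaca, the catalytic subunit of protein kinase A, differed by 0.32 with all arrays and by -0.06 without control replicate 3. The other Prkaca probe set differed by -0.27 with all arrays. Known substrates of Gsk3 split 16 higher and 15 lower of 31, median 0.0053 log2, or -0.0076 without control replicate 3. Nfatc2, a calcium-regulated transcription factor, differed by 0.33 ± 0.11 log2 (SE), although its other probe sets ranged from -0.27 to 0.17. Creb1, the cAMP-responsive factor, differed by 0.26 ± 0.11 and Acly, the ATP citrate lyase, by -0.19 ± 0.10. Gli2, a Hedgehog effector, differed by -0.31 ± 0.17 (-0.13 without control replicate 3, its highest array). The Gli2 probe set read was brighter than only 27.5% of probe sets, and the other one differed by -0.08.

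The labelled cell type was checked on its markers. Of 14 beta cell markers 11 were measured, all 11 brighter than the median probe set, and their mean log2 signal ran from 12.42 to 12.57 over controls and from 12.42 to 12.46 over Hlxb9 siRNA arrays. Of 17 markers of other cells 16 were measured, 6 of them above the median, and their mean ran from 5.45 to 5.60 and from 5.42 to 5.63 log2. Hormone genes of other islet cells were among these 6: Sst, somatostatin, was brighter than 99.4% of probe sets, Gcg, glucagon, than 99.2% and Ppy, pancreatic polypeptide, than 84.9%. Ppy differed by 1.13 ± 0.81 log2 (SE), or 0.32 without control replicate 3, with overlap. The rest of the 6 were Cd68, a lysosomal protein of macrophages, brighter than 66.2% of probe sets, Col1a1 than 59.8% and Cela3b than 50.6%. Ptprc and Adgre1, which define blood cells and macrophages, were brighter than only 16.5% and 11.2% of probe sets. Cd68 was higher after Hlxb9 siRNA by 0.54 ± 0.13 log2 (SE, limma adjusted p = 0.645).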

How the data were processed

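Biotinylated cRNA from 6 ug of total RNA of each sample was hybridised to an Affymetrix mouse array. Each deposited value is the log2 signal of 1 probe set, for which the submitters' processing notes name RMA and Partek and no version. Sources used here give no RMA settings, and arrays give no read depth, so the number of arrays limits the precision. Of 45101 probe sets, 64 controls of the array maker were set aside. The platform annotation gave 34945 probe sets 1 symbol, 932 several and 9160 none here. Groups were compared with limma 3.58.1 (R 4.3.3) on all 45037 probe sets, without covariates; tests were two-sided and p-values adjusted by Benjamini-Hochberg. Promoter stretches came from RefSeq tables of GRCm38.p6, where all 6 genes matched.

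Deviations from group means correlated at 0.15, 0.16 and 0.20 between arrays of equal number, each over 0.1, and equal numbers were therefore treated as pairs; this rests on the values, not the labels. The main fit and the permutation tests leave the pairing out, and the fit with the replicate block is an alternative. Members, lists and the rule for named genes were chosen with earlier results of these data known. The rule names all member probe sets, the 4 smallest p of each list other than the marker lists, the 5 highest and 3 lowest correlations with Mnx1, and Cblb and Men1. Markers and Neat1 were named outside it, after their values were seen. Alternatives are given at the end.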

Additional observations from a re-analysis of the deposited data

How the results depend on the processing

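The 20 probe sets were refitted with the replicate block, with each array centred on its median, with quantile normalization repeated, with an offset of 32 on the linear scale, without dim probe sets, with a variance trend and robust prior, with array weights and without each array. Of the 256 values, 11 turned sign, on 6 probe sets, and the direction of the other 14 held. Mnx1 stayed between -0.38 and -0.14 log2; with the replicate block its limma adjusted p was 0.544. Centring moved the median difference by -0.05 log2.

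Leaving out 1 array turned Gsk3b 1437001_at (-0.45 to 0.20), Gsk3b 1439931_at (-0.46 to 0.15), Gsk3b 1439949_at (-0.044 without control replicate 3, to 0.29), Sfpq 1436898_at (-0.039 without that array, to 0.60), Sfpq 1423796_at (-0.18 to 0.0016, the latter without Hlxb9 siRNA replicate 2) and the Gsk3b minus Gsk3a gap (-0.23 to 0.045); array weights turned Gsk3b 1439949_at (-0.064) and Pspc1 1423193_at (0.023). Array weights, which rest mostly on the arrays numbered 2, called 579 probe sets higher and 553 lower against 0 and 0, and 1 of the 20, Nono 1447160_at at -0.45 log2 (limma adjusted p = 0.0496, over its alternatives to 0.958). Without weights the fits called 0 in every setting. The gap of Gsk3b minus Gsk3a was 0.14 when a gene's probe sets were averaged. With the brightest plain _at probe set of each gene, Nono (1431239_at) was 0.35 and Sfpq (1423795_at) -0.16 log2. Without control replicate 3 these were 0.0038 and -0.098, and Nono 1447160_at, also a plain _at probe set, was -0.58 with all arrays. The cause was not tested. Member probe sets lower at an unadjusted p numbered 5 after centring, after repeated quantile normalization and with the offset, and 0 to 5 without 1 array. Over all 45037 probe sets, 2346, 1834 and 1678 were lower in the first 3 of these settings, against 1692 in the main fit. Leaving out 1 array gave 824 to 2378 over all probe sets. At an unadjusted p the replicate block lowered the count of members from 3 to 2 and of paraspeckle genes from 6 to 2. Over all probe sets the count of lower ones went from 1692 to 1902 with the block. The block changed no call at an adjusted p.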

Other observations

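Clock and CREB coactivator genes, whose products meet Nono or Gsk3, gave 8 higher and 9 lower of 17 measured, with a median of -0.03 log2, or -0.06 without control replicate 3. Cry2, a repressor of the clock, read 8.24, 8.10 and 7.96 log2 in controls and 8.60, 8.25 and 8.44 after Hlxb9 siRNA, without overlap, a difference of 0.33 ± 0.13 log2 (SE; limma adjusted p = 0.653). Per3 differed by 0.41 ± 0.25 log2, by 0.22 without control replicate 3, and Ciart by -0.24 ± 0.15, both with overlap. Other probe sets of Per3 ranged from -0.18 to 0.15 log2.

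Regulators that act beside Mnx1 in the pancreas gave 9 lower and 3 higher of 12 measured, with a median of -0.07 log2, and of -0.03 without control replicate 3. Pax4, a homeobox factor of beta cell fate, read 5.79, 6.22 and 6.62 log2 in controls and 6.82, 6.99 and 6.81 after Hlxb9 siRNA. The groups did not overlap, and the difference was 0.66 ± 0.20 log2 (SE; limma adjusted p = 0.645). Isl1 differed by -0.14 log2, but its other probe set by 0.17. Pdx1 differed by -0.11 and Neurog3 by -0.12 log2, and their other probe sets by -0.10 and -0.09. The Neurog3 probe set read was brighter than only 27.9% of probe sets. Men1, the gene of menin, differed by -0.17 ± 0.16 log2 and by 0.011 without control replicate 3, with other probe sets from -0.35 to 0.12. Cblb, a ubiquitin ligase gene, differed by 0.09 ± 0.15 log2 and by -0.02 without that array, with other probe sets from 0.0063 to 0.038.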
